A study of Mus musculus with 8 samples.

Results

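The histone genes of the canonical families H1, H2A, H2B, H3 and H4 were followed in microvessels of mouse forebrain through 3 ages: postnatal day 5 (P5), postnatal day 10 (P10) and adulthood. A probe was counted by the mouse symbol that its accession matched. The symbol had to begin with H1f, H2ac, H2bc, H3c or H4c and a number, or be an older Hist symbol. This rule read names alone, though it was chosen with earlier results of these data known. Of the 39429 probes on the array, 52 met it, for 48 genes (4 of them with 2 probes). Of these, 42 genes were measured: 8 linker histone genes (H1f), 11 H2A genes (H2ac), 8 H2B genes (H2bc), 7 H3 genes (H3c) and 8 H4 genes (H4c). The other 6 genes, H1f3, H1f7, H2ac6, H2ac8, H2bc22 and H2bc23, were not well above background in every channel of any age and have no ratio here.

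All groups were of the same tissue. Total forebrain was broken up in a Dounce homogeniser, sedimented by density and filtered so that particles under 70 µm were kept, and the labels used here give no strain, sex or adult age. RNA of 2 ages shared each of 8 two-colour arrays, with 2 replicates per age. Each replicate filled 1 slide of 4 arrays, which held P5 and adult RNA, P10 and adult RNA in both dye orders, and P5 and P10 RNA. Whether a replicate was 1 animal or a pool is not in the labels, so p-values cover the spread between the samples alone, and that spread may be technical. The fraction was enriched in small vessels and could carry other attached cells. All 14 endothelial marker genes fixed for the check, among them Pecam1, Cdh5 and Cldn5, were measured.

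Histones package DNA. The core histones H2A, H2B, H3 and H4 form the nucleosome, and the linker histones H1 bind the DNA between nucleosomes. Most of these genes lie in clusters and are replication-dependent: their mRNA is made in S phase, ends in a stem-loop instead of a poly(A) tail, and is degraded when DNA synthesis stops. H1f0 and H1f10 are linker histone genes expressed independently of replication, and some canonical genes are known to give polyadenylated transcripts in cells that have left the cell cycle. Labelling with kits of the type used here starts from the poly(A) tail, and the share of each histone mRNA that carries one was not measured.

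Promoters of 37 of the 42 measured genes were in the RefSeq promoter table (build GRCm38.p6), 28 of them on chromosome 13, 6 on chromosome 3, 2 on chromosome 6 and 1 on chromosome 15. The 200 bases before the start of 8 genes are shown as description, and their relation to the expression values was not tested. The linker histone genes H1f5, at chr13:21780626-21780825 (- strand), H1f4, at chr13:23622559-23622758 (- strand), and H1f2, at chr13:23738607-23738806 (+ strand), are replication-dependent, and H1f0, at chr15:79028012-79028211 (+ strand), is not; capitals mark AAACACA, an element known from H1 promoters.

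H1f5: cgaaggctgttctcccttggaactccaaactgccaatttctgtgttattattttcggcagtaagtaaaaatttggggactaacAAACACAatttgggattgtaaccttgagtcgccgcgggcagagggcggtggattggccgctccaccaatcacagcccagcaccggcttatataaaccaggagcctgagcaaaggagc

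H1f4: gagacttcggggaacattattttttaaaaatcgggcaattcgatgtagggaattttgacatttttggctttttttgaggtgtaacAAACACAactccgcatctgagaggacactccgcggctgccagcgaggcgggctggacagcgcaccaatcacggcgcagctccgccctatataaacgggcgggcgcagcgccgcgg

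H1f2: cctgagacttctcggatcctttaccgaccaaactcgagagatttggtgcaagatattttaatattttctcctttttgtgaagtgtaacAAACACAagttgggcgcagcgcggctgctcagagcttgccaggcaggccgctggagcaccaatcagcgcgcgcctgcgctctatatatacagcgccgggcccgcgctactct

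H1f0: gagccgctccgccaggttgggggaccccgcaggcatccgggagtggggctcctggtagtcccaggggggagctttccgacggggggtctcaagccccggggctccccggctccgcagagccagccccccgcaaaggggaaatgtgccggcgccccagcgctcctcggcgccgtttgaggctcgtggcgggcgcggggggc

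The H2A genes H2ac18, at chr3:96245297-96245496 (+ strand), and H2ac19, at chr3:96240375-96240574 (- strand), lie near each other on opposite strands. In adults against either younger age, their probes gave ratios of opposite sign. Capitals mark CCAAT, a motif known to be bound by NF-Y, on either strand.

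H2ac18: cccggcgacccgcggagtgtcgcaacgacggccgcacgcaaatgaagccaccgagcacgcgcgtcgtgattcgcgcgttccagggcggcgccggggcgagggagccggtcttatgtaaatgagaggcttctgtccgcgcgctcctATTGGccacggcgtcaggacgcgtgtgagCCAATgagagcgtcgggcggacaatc

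H2ac19: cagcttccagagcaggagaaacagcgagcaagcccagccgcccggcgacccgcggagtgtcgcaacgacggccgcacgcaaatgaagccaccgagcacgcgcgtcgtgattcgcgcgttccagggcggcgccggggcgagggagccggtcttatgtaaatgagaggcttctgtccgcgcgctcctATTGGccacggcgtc

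The H2B gene H2bc18, at chr3:96269500-96269699 (+ strand), and the H2A gene H2ac4, at chr13:23750888-23751087 (+ strand), are shown with the octamer ATTTGCAT in capitals on either strand, a motif of H2B promoters known to be bound by POU2F1.

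H2bc18: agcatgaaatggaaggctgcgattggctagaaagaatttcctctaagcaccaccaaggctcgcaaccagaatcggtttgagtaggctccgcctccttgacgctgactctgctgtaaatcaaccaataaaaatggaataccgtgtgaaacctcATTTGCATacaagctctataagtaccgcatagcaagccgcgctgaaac

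H2ac4: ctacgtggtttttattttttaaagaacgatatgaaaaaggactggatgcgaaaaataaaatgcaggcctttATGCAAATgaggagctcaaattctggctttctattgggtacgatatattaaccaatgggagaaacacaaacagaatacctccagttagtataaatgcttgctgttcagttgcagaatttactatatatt

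AAACACA stood in 4 of the 8 linker histone windows, those of H1f2, H1f4, H1f5 and H1f6, against 4.8% of all 32851 windows of this length. In H1f5, H1f4 and H1f2 it began at positions -117, -115 and -112 relative to the start. CCAAT was found in all 11 H2A windows, all 7 H2B windows and all 5 H3 windows, but in 2 of the 7 H4 windows, against 29.3% of all windows. The octamer was in 6 of 7 H2B windows and 4 of 11 H2A windows, against 1.38% of all windows. TATAAA was in 17 of the 38 windows of these 37 genes, against 9.96% of all. None of the 4 motifs contains another, all were searched on both strands, and a match describes the letters only.

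By the median over the 42 genes, histone transcripts were highest at P10 and lowest in adults. The median log2 ratio was -0.91 in adult against P10 (-1.02 and -0.83 in replicates 1 and 2), -0.35 in adult against P5 (-0.47 and -0.30) and 0.49 in P10 against P5 (0.50 and 0.46). Over all 21939 genes tested the medians were -0.0099, -0.094 and -0.056. The 3 comparisons share their samples, so they are not independent of each other.

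In adult against P10, 27 histone genes fell and 5 rose at an adjusted p below 0.05 (limma, Benjamini-Hochberg over all genes), while 10 did not pass. Of all genes tested, 17.5% passed: 8.42% fell and 9.11% rose. In adult against P5, 20 histone genes fell, 5 rose and 17 did not pass, where 53.1% of all genes passed, 30.1% lower and 23% higher. Between P10 and P5, 18 histone genes rose at P10, 2 fell and 22 did not pass, where 41.2% of all genes passed, 18.2% higher and 23% lower. Whether probes of related genes read separate transcripts was not checked, so 1 transcript may be counted more than once. The number of calls depended on the processing, though some genes, such as H2ac4 in adult against P10, passed under all 10 other processings tried. With normexp fitted on all spots, 11 of the 32 adult against P10 calls and none of the 20 P10 against P5 calls passed in limma (in the last, 19 genes higher and 2 lower had an unadjusted p below 0.05); in channel signals fitted without the slide as a block, 15 and 1 passed, and with median centring 21 and 14.

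**Figure D1:**
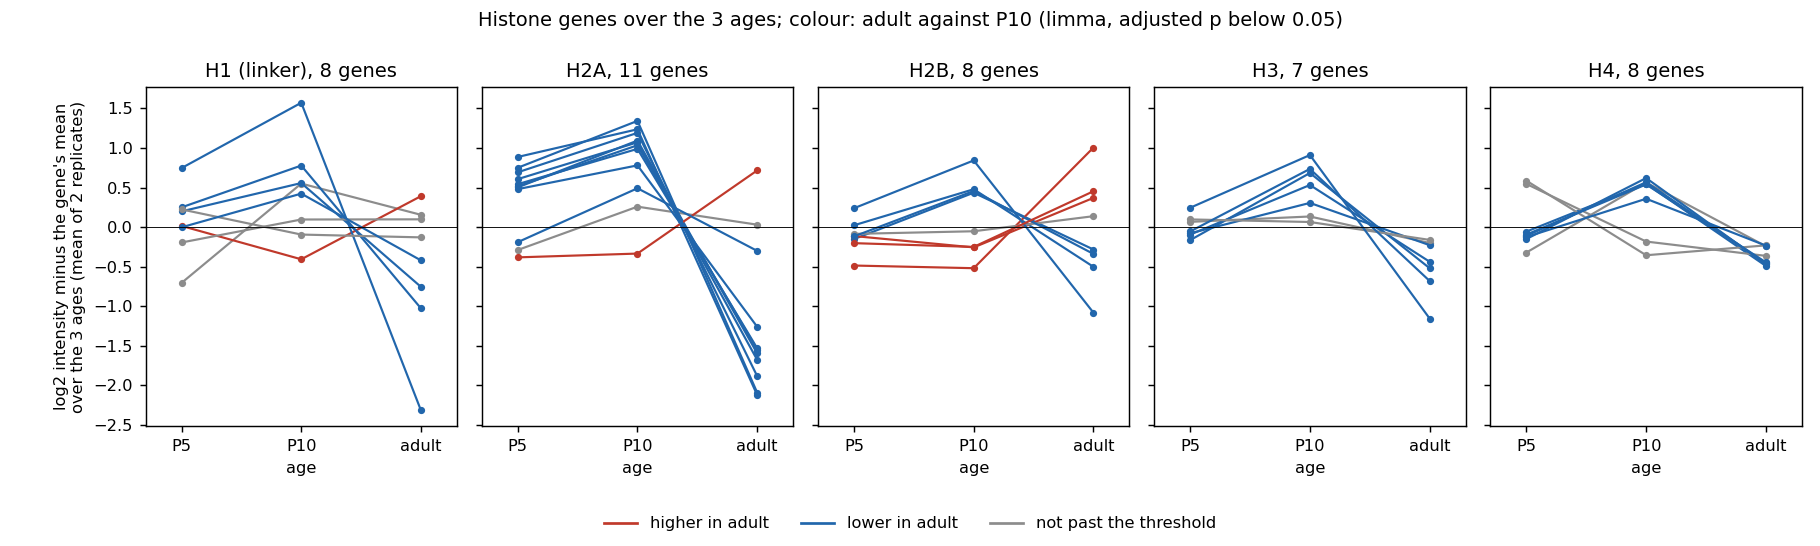
Each line is 1 gene: normalized log2 intensity at P5, P10 and adulthood (mean of 2 replicates) minus the gene's mean over the 3 ages, in 5 panels by histone class, with colour for the adult against P10 call. Most H2A lines drop steeply after P10, while the genes called higher in adults, H1f2, H2ac18, H2bc4, H2bc6 and H2bc21, end at their highest there.

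The 42 ratios of adult against P10 spanned -3.89 to 1.52. The 5 genes that rose were H1f2 among the linker histones, H2ac18 among the H2A genes, and H2bc4, H2bc6 and H2bc21 among the H2B genes. In the H3 and H4 classes 5 genes each fell, and the rest did not pass.

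**Figure D2:**
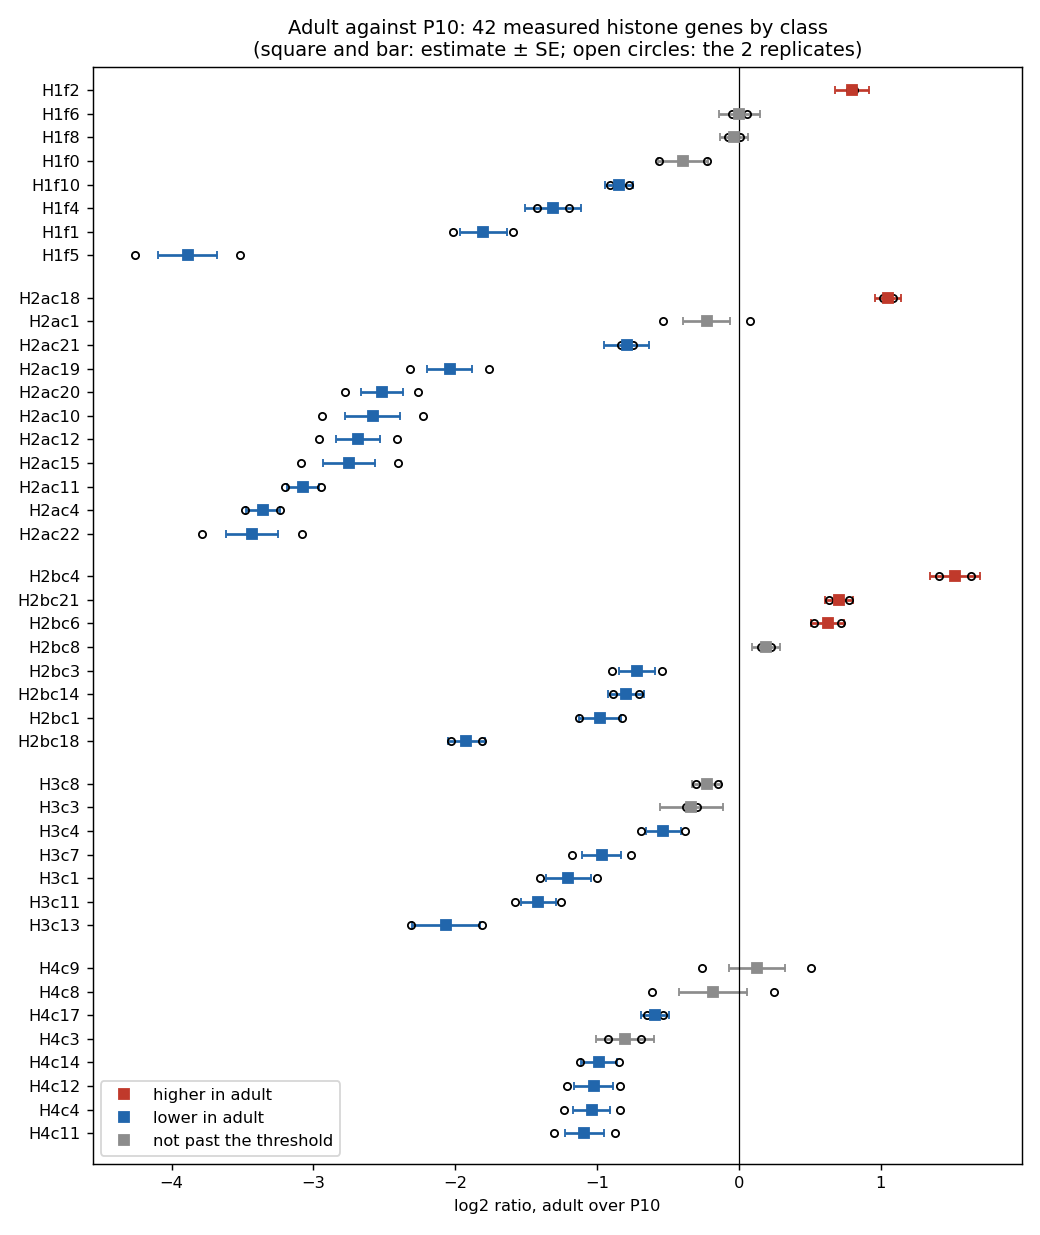
Log2 ratio of adult over P10 for the 42 measured histone genes, by class: squares with bars give the estimate ± SE, open circles the 2 replicates. H1f5 stands lowest at -3.89, and H2bc4 highest at 1.52.

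Among the linker histones, H1f5 (histone H1.5) fell furthest. Its normalized log2 intensity was 11.04 and 9.85 at P5, 12.21 and 10.33 at P10, and 7.96 and 6.81 in adults (replicates 1 and 2). Both adult samples lay below all P5 and P10 samples, whereas the P5 and P10 ranges overlapped across slides and P10 was the higher on each slide. Its log2 ratio was -3.89 ± 0.21 (SE, n = 2) in adult against P10, 14.8-fold lower (limma adjusted p = 0.00225), and -3.06 ± 0.21 in adult against P5 (limma adjusted p = 0.00101). The ratio in P10 against P5 was 0.83 ± 0.21 (limma adjusted p = 0.0333).

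H1f1 and H1f4, further replication-dependent linker histone genes, fell less. H1f1 had 8.20 and 7.34 at P5, 8.65 and 7.96 at P10, and 6.63 and 6.36 in adults, a log2 ratio of -1.80 ± 0.17 in adult against P10 (limma adjusted p = 0.00541). H1f4 measured 11.96 and 11.38 at P5, 12.06 and 12.002 at P10, and 10.63 and 10.80 in adults, and its ratio in adult against P10 was -1.31 ± 0.20 (limma adjusted p = 0.0164). For both genes the adult samples lay below every P5 and P10 sample. Against P5 the adult ratios were -1.28 for H1f1 and -0.95 for H1f4, both past the threshold (limma adjusted p = 0.00421 and 0.0144), and neither gene passed in P10 against P5.

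H1f2 (histone H1.2) went the other way. Its log2 intensity was 10.37 and 10.997 at P5, 10.11 and 10.42 at P10, and 10.90 and 11.23 in adults. The adult samples lay above both P10 samples and overlapped those of P5. The ratio was 0.80 ± 0.12 in adult against P10 (limma adjusted p = 0.0175) and -0.42 ± 0.12 in P10 against P5 (limma adjusted p = 0.0468), and 0.38 ± 0.12 in adult against P5 did not pass (limma adjusted p = 0.0522). With each array centred on its median instead of loess, the P10 against P5 ratio of H1f2 turned to 0.15, and the adult against P10 ratio stayed at 0.80 without passing (limma adjusted p = 0.137).

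The replication-independent H1f0, known to accumulate in differentiated cells, rose early. It had 6.71 and 7.24 at P5, 8.29 and 8.17 at P10, and 7.73 and 7.94 in adults. All P10 and adult samples lay above both P5 samples, with ratios of 1.26 ± 0.18 in P10 against P5 (limma adjusted p = 0.01) and 0.86 ± 0.18 in adult against P5 (limma adjusted p = 0.0141). Adult against P10 gave -0.39 ± 0.18 and did not pass (limma adjusted p = 0.205). H1f10, the other replication-independent linker histone gene, measured 7.07 and 7.46 at P5, 7.47 and 7.91 at P10, and 6.69 and 7.01 in adults. It fell by 0.84 on the log2 scale in adult against P10 (limma adjusted p = 0.00892) and by 0.42 in adult against P5 (limma adjusted p = 0.0206), and rose by 0.43 in P10 against P5 (limma adjusted p = 0.026).

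H1f6 and H1f8, linker histone genes known from testis and oocyte, were dim. H1f6 measured 6.53 and 6.34 at P5, 7.06 and 6.40 at P10, and 7.01 and 6.45 in adults, and passed in no comparison. H1f8 measured 7.15 and 7.59 at P5, 6.86 and 7.23 at P10, and 6.87 and 7.15 in adults, and its ratio of -0.35 ± 0.10 passed in adult against P5 (limma adjusted p = 0.0353). The age ranges of both genes overlapped.

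**Figure D3:**
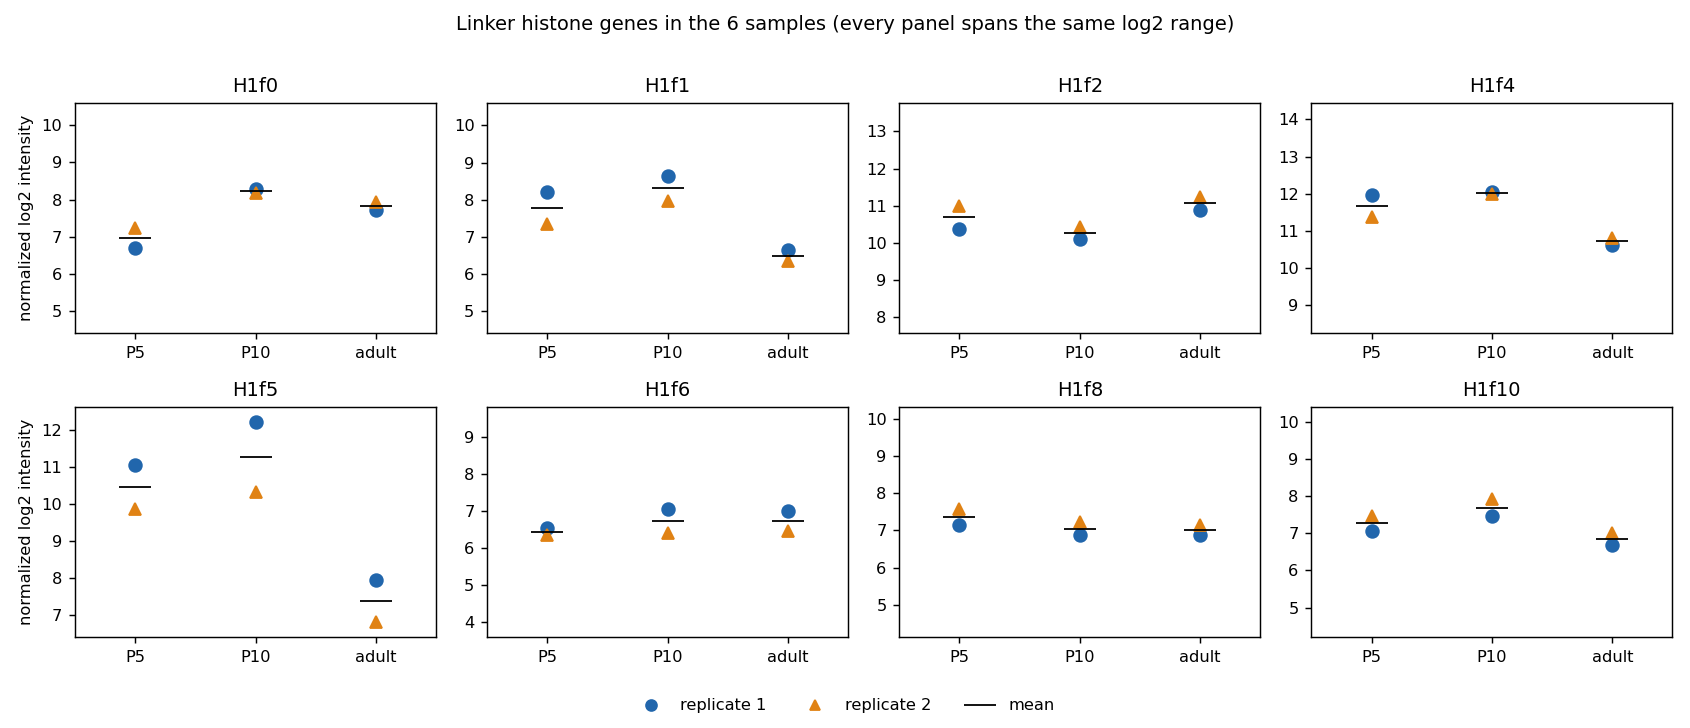
Normalized log2 intensity of the 8 measured linker histone genes in each of the 6 samples, with a bar at the mean of the 2 replicates at each age. H1f5, H1f1, H1f4 and H1f10 are lowest in adults, H1f0 is lowest at P5, and H1f2 is lowest at P10.

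In the H2A class, 9 of 11 genes fell in adult against P10, with log2 ratios from -3.43 to -0.79, 1 rose and 1 did not pass; the class median was -2.58. H2ac22 measured 15.00 and 14.36 at P5, 15.72 and 14.83 at P10, and 11.94 and 11.75 in adults, a ratio of -3.43 ± 0.19 in adult against P10, 10.8-fold lower (limma adjusted p = 0.00225). H2ac4 had 12.81 and 12.29 at P5, 13.31 and 12.48 at P10, and 9.83 and 9.25 in adults, a ratio of -3.36 ± 0.12 (limma adjusted p = 0.00168). The adult samples of both genes lay more than 2 log2 units below every younger sample.

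H2ac11 fell by 3.07 ± 0.11 and H2ac12 by 2.69 ± 0.16 on the log2 scale in adult against P10 (limma adjusted p = 0.00168 and 0.00233). H2ac10, H2ac15, H2ac19 and H2ac20 also fell, between -2.75 and -2.04, and H2ac21 less so, at -0.79. Against P5, 8 of the 11 genes fell in adults, from -3.01 for H2ac4 to -1.74 for H2ac19, and H2ac1 and H2ac21 did not pass. The H2A ratios in P10 against P5 were small: H2ac11, H2ac12 and H2ac21 rose, by 0.50, 0.59 and 0.68 (limma adjusted p = 0.0253, 0.0368 and 0.0264), and the other 8 did not pass. H2ac1, a gene known from testis, passed in no comparison. The coding sequences of H2A genes are close to each other, and probe sequences were not used here. So 1 transcript may have bound the probes of several of these genes, and they are best read as a family. Probes of the H2B, H3 and H4 genes were not checked for this either. H2ac15 has a second probe, which gave -3.44 in adult against P10, beside -2.75 at the brighter one.

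H2ac18 was the exception in this class. It measured 11.72 and 11.30 at P5, 11.80 and 11.32 at P10, and 12.82 and 12.40 in adults, so both adult samples lay above all younger ones. Its ratio was 1.05 ± 0.095 in adult against P10, 2.07-fold higher (limma adjusted p = 0.00516), 1.098 ± 0.095 in adult against P5 (limma adjusted p = 0.00156), and 0.048 ± 0.095 in P10 against P5, not past the threshold. H2ac19, its neighbour on chromosome 3, measured 15.20 and 14.75 at P5, 15.67 and 14.88 at P10, and 13.36 and 13.11 in adults, and its ratio was -2.04 ± 0.16 in adult against P10 (limma adjusted p = 0.00382) and -1.74 ± 0.16 in adult against P5 (limma adjusted p = 0.00174). The promoter windows printed above share an identical stretch of 160 bases, offset by 40 bases relative to the annotated starts. On all 6 arrays that held adult RNA, the probes of these neighbouring genes gave ratios of opposite sign. Those arrays carry the RNA of only 2 replicates per age, so they are not 6 independent results. The H2ac19 probe is among the bright H2A probes whose transcripts may be shared.

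**Figure D4:**
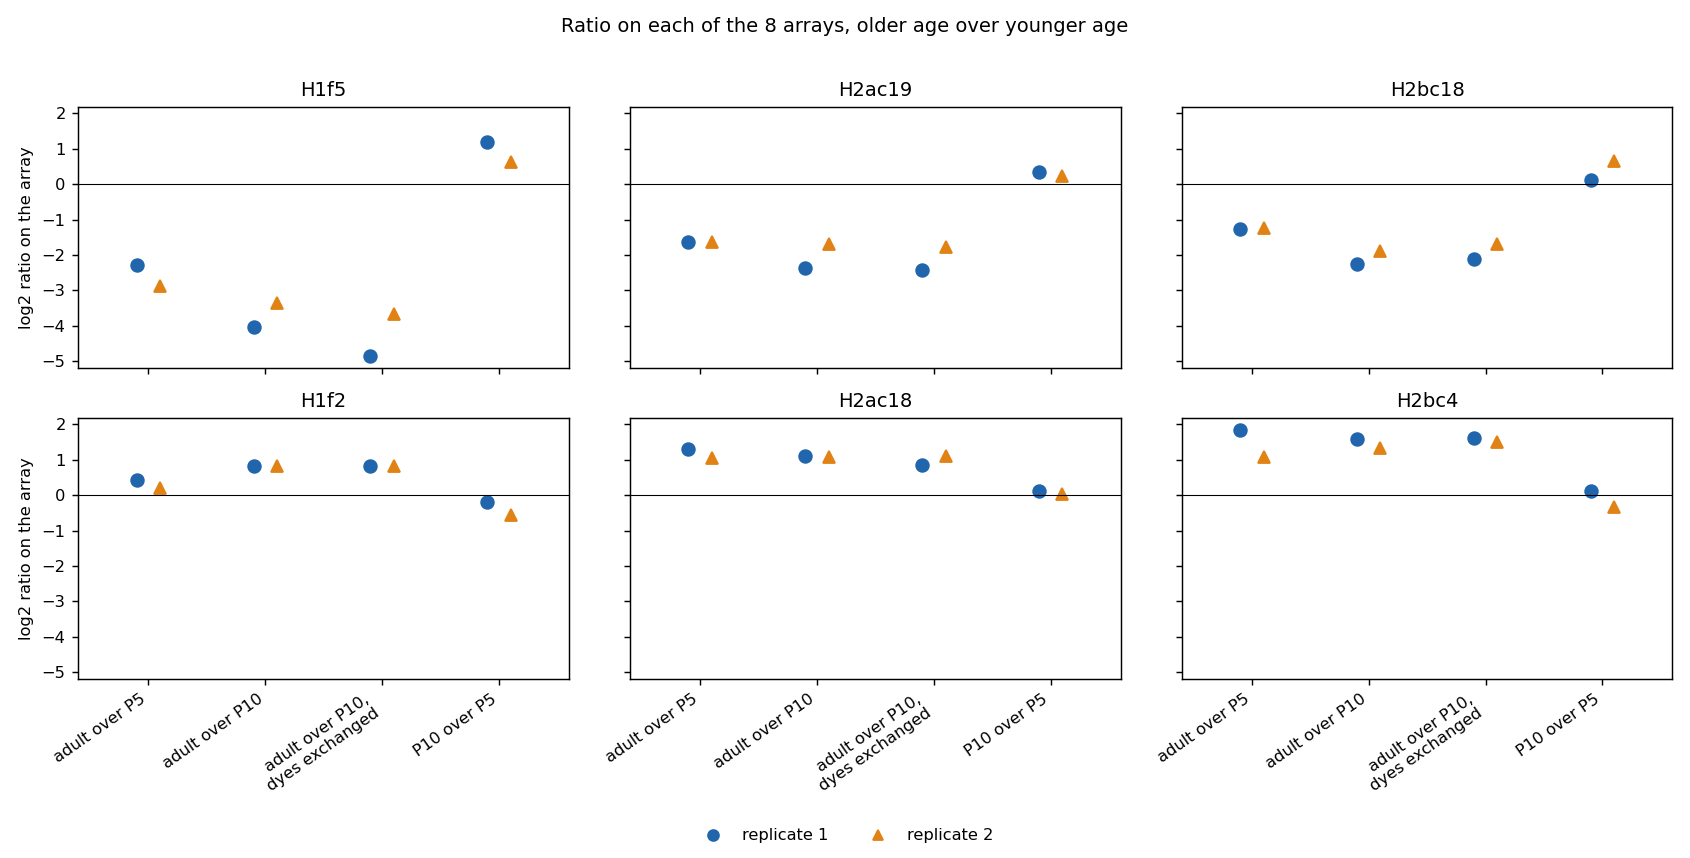
Log2 ratio of the older over the younger age on each of the 8 arrays for 6 genes, by replicate. On the 6 arrays with adult RNA, H1f5, H2ac19 and H2bc18 are below 0, and H1f2, H2ac18 and H2bc4 above 0. Only the adult and P10 pair was hybridised in both dye orders.

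The H2B class was split. In adult against P10, 4 genes fell, 3 rose and 1 did not pass, and the class median was -0.26. H2bc4 had 10.89 and 11.19 at P5, 11.08 and 10.94 at P10, and 12.71 and 12.35 in adults. Its ratio was 1.52 ± 0.18 in adult against P10, 2.87-fold higher (limma adjusted p = 0.00911), 1.49 ± 0.18 in adult against P5 (limma adjusted p = 0.0034) and -0.034 ± 0.18 in P10 against P5 (limma adjusted p = 0.889). Both adult samples were above all P5 and P10 samples, which overlapped.

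H2bc21 and H2bc6 rose by smaller amounts. H2bc21 measured 7.33 and 7.81 at P5, 7.31 and 7.74 at P10, and 7.94 and 8.51 in adults, with ratios of 0.70 ± 0.10 in adult against P10 (limma adjusted p = 0.014) and 0.66 ± 0.10 in adult against P5 (limma adjusted p = 0.00614). H2bc6 measured 7.18 and 7.86 at P5, 7.10 and 7.65 at P10, and 7.82 and 8.18 in adults, with ratios of 0.63 ± 0.12 and 0.48 ± 0.12 in the same comparisons (limma adjusted p = 0.0289 and 0.0236). The adult range stood apart from both younger ages for H2bc21, and overlapped that of P5 for H2bc6. Of the 10 other processings tried, adult against P10 passed in 10 for H2bc4, 8 for H2ac18, 6 for H1f2, 6 for H2bc21 and 5 for H2bc6, always with a positive ratio.

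H2bc18 fell most in its class. It measured 10.69 and 9.80 at P5, 11.20 and 10.49 at P10, and 9.17 and 8.68 in adults, a ratio of -1.92 ± 0.13 in adult against P10, 3.79-fold lower (limma adjusted p = 0.00296), and -1.32 ± 0.13 in adult against P5 (limma adjusted p = 0.00217). H2bc1, a gene known from testis, measured 11.05 and 10.39 at P5, 11.40 and 10.95 at P10, and 10.27 and 10.12 in adults, and its ratio was -0.98 ± 0.15 in adult against P10 (limma adjusted p = 0.0173). Against P5 the adult ratio of H2bc1 was -0.52 ± 0.15 (limma adjusted p = 0.0361), which turned to 0.061 with median centring. H2bc14 fell by 0.79 in adult against P10. H2bc3 was not well above background in any adult channel, so its adult level is only a bound, at least 1.63-fold lower than P10 (limma adjusted p = 0.0245). At P10, against P5, H2bc3, H2bc14 and H2bc18 rose, by 0.57 to 0.60, and the other 5 genes did not pass. H2bc3 was well above background in 2 of 4 P5 channels and 6 of 6 P10 channels, so P10 alone let it be kept. It is counted among the 27 histone genes that fell in adult against P10 and the 18 that rose at P10. Being kept through P10 favoured both calls, so they are no separate support for a P10 peak.

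In the H3 class, 5 of 7 genes fell in adult against P10 and 2 did not pass, at a class median of -0.97. H3c13 had 10.74 and 9.47 at P5, 11.17 and 10.37 at P10, and 8.86 and 8.55 in adults, a ratio of -2.06 ± 0.24 in adult against P10, 4.18-fold lower (limma adjusted p = 0.00885). H3c11 had 7.67 and 7.52 at P5, 8.43 and 8.33 at P10, and 7.18 and 6.75 in adults, and fell by 1.42 ± 0.12 (limma adjusted p = 0.00472). The 3 ages did not overlap for H3c11, and the adult samples of H3c13 lay below all others. These were also the H3 genes that fell in adult against P5, by 1.40 and 0.63 (limma adjusted p = 0.00852 and 0.0125).

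H3c1 and H3c7 peaked at P10. H3c1 measured 6.92 and 6.55 at P5, 8.04 and 7.12 at P10, and 6.64 and 6.12 in adults, where 1 of 6 channels was well above background, so its adult level lay near the background. Its ratio was -1.20 ± 0.16 in adult against P10 (limma adjusted p = 0.0124) and 0.85 ± 0.16 in P10 against P5 (limma adjusted p = 0.0176). The size of the first is poorly set: over 9 other processings it ran from -3.37 to -0.92 and passed in 7. H3c7 had 7.29 and 6.85 at P5, 7.94 and 7.44 at P10, and 6.77 and 6.68 in adults, with ratios of -0.97 ± 0.14 and 0.63 ± 0.14 (limma adjusted p = 0.0145 and 0.0237). H3c4, at -0.53, fell by the least of the 5. H3c8, not well above background in any adult channel, and H3c3, whose replicates lay more than a log2 unit apart at each age, passed in no comparison.

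Most H4 genes were highest at P10. Against P5, 6 of 8 rose at P10, from 0.48 to 0.88, while H4c9 fell at its brighter probe and H4c8 did not pass. In adult against P10, 5 fell, from -1.09 to -0.59, and 3 did not pass. H4c12 measured 14.07 and 12.90 at P5, 14.74 and 13.58 at P10, and 13.53 and 12.75 in adults, with ratios of -1.02 ± 0.14 in adult against P10 (limma adjusted p = 0.0123) and 0.68 ± 0.14 in P10 against P5 (limma adjusted p = 0.0198). H4c11 had 9.88 and 8.55 at P5, 10.73 and 9.23 at P10, and 9.42 and 8.36 in adults, with ratios of -1.09 ± 0.14 and 0.77 ± 0.14 (limma adjusted p = 0.0106 and 0.0154). The slides lay far apart for both genes, so the ages overlapped across slides, but P10 was highest and adult lowest on each slide.

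H4c4 and H4c14 gave much the same ratios in adult against P10, -1.04 ± 0.13 and -0.98 ± 0.13 (limma adjusted p = 0.0107 and 0.0116). Their levels were 11.67 to 12.48 and 12.56 to 13.25 at P5, 12.17 to 13.19 and 13.24 to 13.84 at P10, and 11.34 to 11.96 and 12.39 to 12.72 in adults. In adult against P5 the ratio of H4c4 was -0.43 (limma adjusted p = 0.0417), and those of H4c11, H4c12 and H4c14 were -0.32, -0.35 and -0.35 without passing. Median centring turned all 4 to positive values, 0.23 for H4c4, 0.10 for H4c11, 0.32 for H4c12 and 0.31 for H4c14, so no direction holds for these genes between P5 and adulthood.

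H4c8, and H4c9 at its brighter probe, differed from the rest of their class. H4c9 measured 9.12 and 9.95 at P5, 7.98 and 9.21 at P10, and 8.48 and 8.95 in adults, with ratios of -0.94 ± 0.20 in P10 against P5 (limma adjusted p = 0.0213) and -0.82 ± 0.20 in adult against P5 (limma adjusted p = 0.0224). Its second, dimmer probe gave 0.52 in P10 against P5, the opposite sign. In adult against P5 that probe gave 0.052 (limma adjusted p over all probes = 0.741). So the direction of H4c9 is not settled in either comparison. H4c8 gave -0.73 ± 0.24 in P10 against P5, not past the threshold (limma adjusted p = 0.0651), and -0.91 ± 0.24 in adult against P5 (limma adjusted p = 0.0295).

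Genes that act with histones were counted over lists made by role, with earlier results of these data known, and the genes named from them were mostly chosen by their values. The counts are to be read beside the shares of all genes. In adult against P10, 8.42% of all genes fell and 9.11% rose. In adult against P5, 30.1% fell and 23% rose, and in P10 against P5, 23% fell and 18.2% rose. Among 7 variants outside the canonical families, 4 fell in adult against P10 and 3 did not pass, with a median of -1.16. Of these, H2ax, whose product marks DNA breaks when phosphorylated, fell by 1.37 ± 0.11 in adult against P10 (limma adjusted p = 0.00457), and Cenpa, the H3 variant of centromeres, by 1.88 ± 0.13 (limma adjusted p = 0.00309). H2aj fell by 1.96 ± 0.18 (limma adjusted p = 0.0055), and the replacement histone genes H3f3a and H3f3b gave -0.17 and 0.053 without passing. In adult against P5, 3 variants fell and H3f3b rose (0.40), and in P10 against P5, H2az1, H2az2 and H3f3b rose (0.68, 0.43 and 0.35).

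The next list was the machinery that makes the 3′ ends of histone mRNA. Of its 14 measured genes, 3 fell and 11 did not pass in adult against P10, at a median of -0.15. Slbp, the stem-loop binding protein, measured 7.70 and 7.47 at P5, 7.94 and 7.92 at P10, and 7.32 and 7.28 in adults, a ratio of -0.63 ± 0.11 in adult against P10 (limma adjusted p = 0.022). Lsm11, a subunit of the U7 particle, gave -0.75 and the exonuclease gene Eri1 -0.72 in the same comparison. In adult against P5, 3 of the 14 rose and 3 fell (21.4% each, against 23% and 30.1% of all genes). In P10 against P5, 5 rose and 2 fell (35.7% and 14.3%, against 18.2% and 23% of all genes). Npat, the coactivator of histone genes, was not among the genes measured.

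Of 22 histone chaperone and assembly genes, 6 fell and 16 did not pass in adult against P10 (median -0.25). The largest were Asf1b, a chaperone of H3 and H4, at -2.35 ± 0.14 (limma adjusted p = 0.00233), and 2 subunits of the CAF-1 assembly complex, Chaf1b at -2.34 ± 0.12 and Chaf1a at -1.71 ± 0.10. In adult against P5, 8 fell and 3 rose (36.4% and 13.6%, against 30.1% and 23% of all genes). In P10 against P5, 6 rose and 2 fell (27.3% and 9.09%, against 18.2% and 23% of all genes).

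DNA replication genes were, by the median of the list, also highest at P10 and lowest in adults. Of 29 measured, 26 fell and 3 did not pass in adult against P10 (median -1.17), 21 fell in adult against P5 (median -0.78), and 15 rose in P10 against P5 (median 0.41). Uhrf1, a factor that copies DNA methylation, was lowest in adult against P10 at -3.15 ± 0.11 (limma adjusted p = 0.00168). Rrm2, a subunit of ribonucleotide reductase, followed at -2.91 ± 0.17, and Cdt1, a licensing factor, at -2.62 ± 0.10. All 18 mitosis genes fell in adult against P10 (median -2.91) and in adult against P5 (median -2.26), and 13 rose in P10 against P5 (median 0.55). Mki67, a marker of cycling cells, measured 12.85 and 12.65 at P5, 12.57 and 12.37 at P10, and 7.95 and 7.94 in adults.

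**Figure D5:**
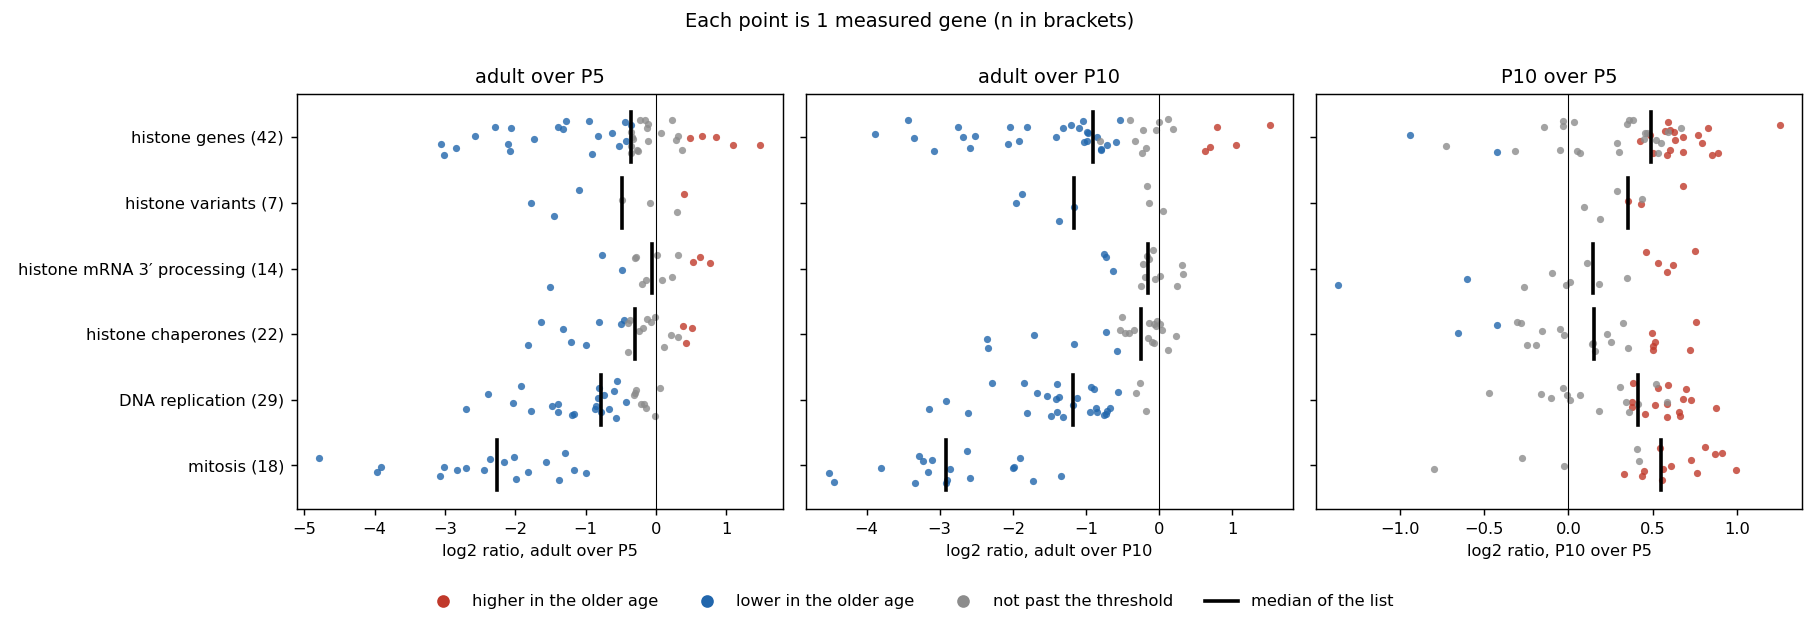
Log2 ratio of every measured gene in 6 lists for adult over P5, adult over P10 and P10 over P5, with colour for the call and a bar at each median; vertical positions within a list are spread only so that points can be seen. In adult over P10 the medians are -0.91 for histone genes, -1.17 for DNA replication and -2.91 for mitosis.

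The make-up of the fraction changed with age too. Summed normalized intensity of the 14 endothelial markers, in units of 1000, was 77.5 and 94.3 at P5, 207 and 241 at P10, and 536 and 645 in adults. The 12 measured erythroid markers summed to 4020 and 4350 at P5, 530 and 635 at P10, and 120 and 163 in adults, and all 12 fell in adult against P5. Pericyte markers (9 genes) summed to 23.3 and 28.2 at P5, 50.7 and 57.5 at P10, and 90.3 and 96.1 in adults, and smooth muscle markers (8 genes) to 15.9 and 19.4, 64.6 and 96.0, and 76.9 and 88.6 at the same ages. Both lists were higher at P10 and in adults than at P5, and the P10 and adult ranges of the smooth muscle list overlapped. The 14 immature neuron and progenitor markers summed to 34.7 and 40.7 at P5, 18.8 and 23.4 at P10, and 14.6 and 16.0 in adults. The 8 oligodendrocyte precursor markers summed to 21.7 and 23.8, 13.3 and 14.5, and 9.95 and 10.7 at P5, P10 and adulthood. Granulocyte markers (8 genes) summed to 38.7 and 52.6 at P5, 9.62 and 25.4 at P10, and 21.2 and 29.0 in adults. The microglia list (8 genes) spanned 16.4 to 35.9 at P5, 16.3 to 16.8 at P10 and 15.9 to 16.4 in adults. The astrocyte list (8 genes) spanned 38.0 to 53.1, 30.0 to 46.9 and 60.2 to 66.1, and the myelinating oligodendrocyte list (8 genes) 67.1 to 89.2, 15.4 to 43.6 and 59.5 to 61.8 at the same ages. By these sums, the erythroid, immature neuron, precursor and granulocyte lists were highest at P5. The myelinating sum was highest at P5 too, but most of it came from 1 gene, Ermn, with log2 intensities of 15.90 and 16.29 there. Ermn fell in adult against P5, while the other 7 myelinating genes had positive ratios and 5 of them rose past the threshold in that comparison. Of the 8 granulocyte genes, 1 fell there and 7 did not pass. The part of these lists in the histone values was not tested. In RNA of whole fractions, fewer dividing cells and less histone mRNA per cell cannot be told apart.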

How the data were processed

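Microvessel RNA of P5, P10 and adult mouse forebrain (100 ng per labelling) was read on 8 two-colour arrays. The files deposited hold scanner output of Agilent Feature Extraction (version 10.5.1.1 per the file headers, 12.6 per the submitters' processing notes), and no other step is given in the sources used here. Per the file headers, the deposited spot, background and processed signals are linear intensity values. Their log ratio column is the log10 of Cy5 over Cy3, per the file headers. Each array had 44397 spots, 43020 of them non-control, of which 65.2% to 73.3% exceeded background clearly; 2 replicates per age limit the precision.

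Median signals were background-corrected with normexp (limma 3.58.1, R 4.3.3, offset 50), which pulls dim ratios towards 0, and normalized by loess (span 0.3). Spots marked as outliers were left out. On 2 arrays, 11 spots in all had a background more than 100 above their signal; for the correction their background was replaced by the array median, and they were then dropped. A probe was kept if some age had all its channels well above background, and a gene was represented by its brightest probe. No histone probe was saturated. Accessions were named through the RefSeq table of assembly GRCm38.p6, for names only, since the probe design names the build mm9: 27427 of 39429 probes matched a symbol.

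The 4 ratios of a slide were fitted by least squares with a dye term, since P5 carried Cy5 on every array that held it and only P10 and adult were dye-exchanged. limma then fitted age with the replicate, which is the slide, as a block (residual degrees of freedom 2, prior 2.91), with Benjamini-Hochberg adjustment inside each comparison. Each slide carries all 3 ages, so a replicate's own ratio is the within-batch value, and deviations of same-numbered samples from their age means correlated across genes at 0.45 to 0.70. The fit was checked on simulated arrays. An "at least" fold sets the bright age against the higher of the dim probe's signal and the lowest signal well above background.

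The members and gene lists were chosen with earlier results of these data known. All linker histone genes were described, and in each core class the 4 with the largest moderated t in adult against P10 plus any called in the opposite direction. From each list up to 3 called genes per comparison were named, with Slbp, Npat and H2ax. Further members named were chosen after their values were seen.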

Additional observations from a re-analysis of the deposited data

How the results depend on the processing

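With 2 replicates per age and dim probes limited by background, the calls depended on the processing more than the directions did. Of 10 alternatives, all with every replicate, the histone median kept its sign in each comparison. Leaving out 1 replicate left the histone median at -0.47 to -0.30 in adult against P5, -1.02 to -0.83 in adult against P10 and 0.46 to 0.50 in P10 against P5.

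Counts below give all genes called, then histone genes. Fitting normexp on all spots, faulty ones included, left 5382 genes in adult against P5, with 2 histone genes higher and 12 lower. In adult against P10 it left 255, with 2 higher and 9 lower and a histone median of -0.68. In P10 against P5 limma then called 0 genes, with 7066 past an unadjusted p of 0.05, among them 19 histone genes higher and 2 lower. In channel signals with no replicate block, 13 histone genes were lower in adult against P5. In adult against P10, 1801 genes were called without that block, with 1 histone gene higher and 14 lower. In P10 against P5 it called 5286, with 1 histone gene higher and 0 lower (limma, 5 and 1 at an unadjusted p below 0.05) and a median of 0.44.

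Median centring called 1279 genes in adult against P10, with 1 histone gene higher, and left 1 histone gene lower in P10 against P5, at a median of 0.92. It moved the median of all genes to 0.074 in adult against P5 and 0.12 in P10 against P5, so the histone median there was 0.92 against an all-gene 0.12. The share of calls that were higher became 53.4% against 43.4% in adult against P5, and 60.1% against 44.2% in P10 against P5. Without the 2 arrays that held faulty spots, 1884 genes were called in adult against P10, with 3 histone genes higher, and 5609 in P10 against P5, with 0 histone genes lower (limma, 4 at an unadjusted p below 0.05); the histone medians were -0.17 in adult against P5 and 0.56 in P10 against P5. The processed signals gave histone medians of -0.77, -1.14 and 0.65 in adult against P5, adult against P10 and P10 against P5. Keeping only probes above background in every channel gave -0.48 in adult against P5 and 0.52 in P10 against P5, and no filter gave 0.45 and no dye term 0.43 in P10 against P5. The mean over all probes of a gene left 1 histone gene lower in P10 against P5.

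Under at least 1 of the 10 alternatives, 12 of the 42 histone ratios turned sign in adult against P5 (2 of them called), 3 in adult against P10 (none called) and 6 in P10 against P5 (1 called), and the cause was not tested. In adult against P5, median centring gave H2bc1 0.061, H4c4 0.23, H4c11 0.10, H4c12 0.32, H4c14 0.31, H3c4 0.52, H2bc14 0.38 and H2bc8 -0.063. Leaving out the 2 arrays gave H4c4 0.020, H4c11 0.17, H4c12 0.057 and H4c14 0.055, and normexp on all spots gave H3c7 0.076, H2ac21 0.025, H2bc3 0.099 and H4c17 0.044. In adult against P10, H1f6 was -0.040 with no background correction, -0.020 with processed signals, -0.076 with median centring and -0.011 with no replicate block. H1f8 was 0.20 with processed signals and 0.16 with no replicate block, and H4c9 was -0.016 with normexp on all spots and -0.17 as the mean of its probes. Leaving out 1 replicate gave -0.051 to 0.055 for H1f6, -0.077 to 0.0055 for H1f8 and -0.26 to 0.51 for H4c9. In P10 against P5, median centring gave H1f2 0.15 and H2bc4 0.64, processed signals gave H2bc4 0.0885, and H2bc21 was 0.091 with no dye term and 0.064 with no replicate block; H2bc8, H3c3 and H3c8, none of them called, also turned. H2bc4 was -0.25 to 0.18 with 1 replicate left out.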
